A study of Homo sapiens with 3 samples.

Results

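GAST and CCK, which encode the precursors of gastrin and cholecystokinin, were followed as 2 of the 33538 genes counted in single-cell RNA libraries of stem cell-derived pancreatic cells. Their rows were found by gene symbol, and each symbol had 1 row. The starting material was H1, an established line of human embryonic stem cells, taken through a differentiation toward beta cells. By their labels the cells were PAX6-/- (KO), PAX6+/- (HET) or wild type (WT). PAX6 encodes a transcription factor of the eye, brain and islet. There was 1 library for each genotype. Genotype and library cannot be told apart, no difference between genotypes was tested, and no p-value is given. The place of the PAX6 lesion and the number of clones are not stated in the labels.

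Gastrin and cholecystokinin are peptide hormones cut from longer precursors and amidated at the same C-terminal sequence. Gastrin is made by G cells of the gastric antrum, where it drives acid secretion, and is made transiently by endocrine cells of the fetal pancreas in rodents. Cholecystokinin is made by I cells of the duodenum, where it contracts the gallbladder and stimulates pancreatic enzyme secretion, and by many neurons. Both bind the receptor encoded by CCKBR, while the receptor encoded by CCKAR prefers sulfated cholecystokinin.

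GAST lies on the plus strand of chromosome 17 (GENCODE 29 on GRCh38, chr17:41712326-41715969) and overlaps no other annotated gene. CCK lies on the minus strand of chromosome 3 (chr3:42257825-42266207) and overlaps 1 antisense RNA gene, AC018358.1, which had 0 UMIs in KO, 0 UMIs in HET and 1 UMI in WT endocrine cells. The coding sequences of GAST-201 and CCK-201, from the GENCODE 29 transcripts, give precursors of 101 and 115 residues. The longest run of residues common to both is 11 long, at residues 88 to 98 of the gastrin precursor and 99 to 109 of the cholecystokinin precursor, and it contains the amidated end of both hormones. The next longest common run is 4 residues. The stretches are printed to show how 2 genes measured separately encode the same peptide end, with 16 codons before and up to 4 after, and capitals mark the codons of the common run.
GAST coding stretch: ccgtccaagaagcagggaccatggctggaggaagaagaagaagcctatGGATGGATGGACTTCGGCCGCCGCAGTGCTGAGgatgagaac
CCK coding stretch: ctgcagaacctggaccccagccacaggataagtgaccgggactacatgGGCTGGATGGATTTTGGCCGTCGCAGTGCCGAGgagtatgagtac
Of the 33 bases in capitals 28 are the same in both genes, and 6 codons are identical.

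Both genes had less RNA in the KO library, so their promoters are printed too, 250 bases before to 50 bases after the RefSeq start (GRCh38.p14). The GAST window is chr17:41712081-41712380 on the plus strand. The CCK window is chr3:42266136-42266435 on the minus strand, the nearer of 2 RefSeq entries, with its start 22 bases from that of GENCODE. Capitals mark every match to TATAA or GGGCGG on either strand.
GAST promoter: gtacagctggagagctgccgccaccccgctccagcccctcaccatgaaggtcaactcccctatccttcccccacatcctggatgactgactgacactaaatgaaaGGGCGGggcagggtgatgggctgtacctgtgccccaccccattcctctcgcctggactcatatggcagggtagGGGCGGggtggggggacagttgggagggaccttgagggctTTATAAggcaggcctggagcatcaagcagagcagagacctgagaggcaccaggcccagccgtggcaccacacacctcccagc
CCK promoter: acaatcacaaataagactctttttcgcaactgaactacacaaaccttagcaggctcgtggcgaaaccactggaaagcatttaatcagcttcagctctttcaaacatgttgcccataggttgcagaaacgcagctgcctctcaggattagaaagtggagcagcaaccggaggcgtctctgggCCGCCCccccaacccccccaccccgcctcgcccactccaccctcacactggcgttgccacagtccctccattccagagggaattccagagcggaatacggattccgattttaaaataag
The GAST window held TATAA on both strands in 1 overlapping stretch, beginning 32 bases upstream of the start, and GGGCGG at 145 and 72 bases upstream. The CCK window held no TATAA and 1 GGGCGG, on the opposite strand, at 69 bases upstream. CANNTG occurred 3 times in the GAST window and 2 times in the CCK window. Of 35116 RefSeq promoter windows of this length, 20.4% held TATAA, 45% GGGCGG and 68.7% CANNTG. A match describes the letters and is not evidence of binding.

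The libraries held 9726 (KO), 9628 (HET) and 9667 (WT) barcodes, of which 8082, 7791 and 7969 cells were kept. Pairs of libraries shared 26 to 43 barcodes. Endocrine cells were taken as those with at least 10 CHGA UMIs per 10000 UMIs (CHGA-high), CHGA being the granule protein chromogranin A. They numbered 980 in KO, 538 in HET and 1407 in WT, or 12.1%, 6.91% and 17.7% of kept cells. All 13 endocrine markers, CHGA among them, were at least 2-fold higher in CHGA-high cells than in cells with no CHGA UMI, in each library. CHGA chose both groups of cells, so its own difference was fixed beforehand and only the other markers inform. Median UMIs per CHGA-high cell were 12224.5 in KO, 12508.5 in HET and 12467 in WT, and median mitochondrial shares were 9.26%, 8.61% and 6.55%. PAX6 itself had 317 CPM (UMIs scaled to a fixed total per group) in KO, 273 CPM in HET and 362 CPM in WT CHGA-high cells, and since the lesion's place is not given this does not check the labels. INS, the insulin gene that defines beta cells, was the leading hormone gene of 19.2% of CHGA-high cells in KO, 27.7% in HET and 25.4% in WT. INS was high, at 10 per 10000 or more, in 26.2%, 50.7% and 57.0% of them, alone or beside another hormone gene.

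GAST was low in KO endocrine cells and high in both other genotypes. In CHGA-high cells GAST had 2591 UMIs in KO, 26569 UMIs in HET and 28618 UMIs in WT. On the TMM-scaled CPM scale, the level was 209 in KO (201 to 217), 3623 in HET (3580 to 3667) and 1601 in WT (1583 to 1620). These intervals, like all below, are at 95% and cover counting error only, not differences between cells or between differentiations. KO was the lowest library, WT the middle and HET the highest, an order that became KO, HET, WT (79.4, 1055 and 1155 CPM) without the 10 cells highest in GAST in each library. The order stayed KO, WT, HET (79.4, 1034 and 1769 CPM) without the highest 1% of cells. GAST was 7.67-fold lower in KO than in WT (7.36 to 7.98, log2 ratio -2.94) and 17.3-fold lower in KO than in HET (16.7 to 18.1, log2 ratio -4.12). It was 2.26-fold higher in HET than in WT (2.22 to 2.30, log2 ratio 1.18).

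A small share of genes stood this far apart. Both GAST and CCK were 2-fold or more lower in KO than in WT, as were 3.25% of the 3720 genes that reached 50 CPM in either library. Both were also 2-fold or more lower in KO than in HET, as were 1.37% of 3569 genes. GAST, and not CCK, was 2-fold or more higher in HET than in WT, as were 0.607% of 3623 genes. Its log2 ratio in HET over WT was under 1 without doublet removal (0.85), with each cell weighing the same (0.92), without the highest 1% of cells (0.78) and without the 10 highest cells (-0.13). The 3 comparisons share libraries and are not independent of each other.

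GAST RNA lay almost entirely in the CHGA-high cells, which held 93.9% of the GAST UMIs in KO, 95.6% in HET and 96.3% in WT. Cells with no CHGA UMI had 1.41 CPM of GAST in KO, 11.3 CPM in HET and 10.6 CPM in WT, with a median of 14359, 12870.5 and 13378 UMIs per cell. None of these cells was GAST-high, meaning at least 10 GAST UMIs per 10000 and at least 3 UMIs. Taking 3 cells of the total as the limit for a count of 0, this allows shares of up to 0.129% in KO, 0.0958% in HET and 0.147% in WT. The most GAST UMIs in any of them was 3, in each library.

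Among CHGA-high cells, 28 of 980 were GAST-high in KO, 73 of 538 in HET and 174 of 1407 in WT. The shares were 2.86% in KO (1.91 to 4.10), 13.6% in HET (10.8 to 16.8) and 12.4% in WT (10.7 to 14.2). The share in KO lay below both others, and the shares of HET and WT were close. At least 1 GAST UMI was found in 21.0% of CHGA-high cells in KO, 39.8% in HET and 39.7% in WT, against 1.85%, 14.4% and 13.2% of cells with no CHGA UMI. With every cell thinned to 3000 UMIs (89, 19 and 101 CHGA-high cells were too shallow in KO, HET and WT), the shares were 11.8% in KO, 24.5% in HET and 25.2% in WT, against 0.396%, 3.58% and 3.54%. GAST-high cells had a median of 26.7 GAST UMIs per 10000 in KO, 48.2 in HET and 42.7 in WT. GAST-high cells were thus fewer in KO and held less GAST RNA each, and on both counts HET and WT were close.

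**Figure D1:**
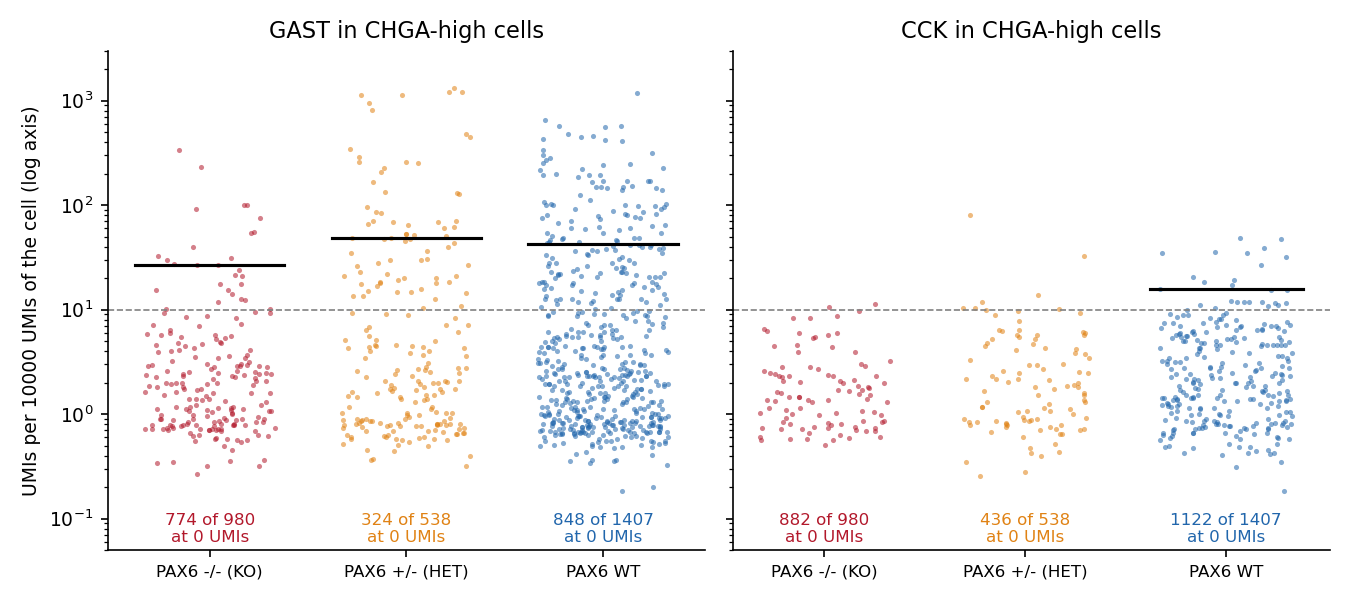
GAST (left) and CCK (right) in single CHGA-high cells of the KO, HET and WT libraries, as UMIs per 10000 UMIs of the cell on a log axis; cells at 0 are given as counts, the dashed line marks 10 per 10000, and black bars are medians of the cells counted as high where there are at least 20. For GAST, HET and WT cells reach above 1000 per 10000 and KO cells reach 340; for CCK, 1 KO cell, 6 HET cells and 25 WT cells are counted as high.

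A large part of the summed GAST level in HET lay in a few cells. The highest cell held 380 GAST UMIs in KO, 4296 in HET and 1378 in WT. In HET the highest cell gave 12.1% of its own UMIs to GAST, and the fourth, with 2341 GAST UMIs, gave 13.2%. At least 500 GAST UMIs per 10000 were reached by 0 cells in KO, 7 cells in HET (1.30%, 0.525 to 2.66) and 5 cells in WT (0.355%, 0.115 to 0.827). The 10 highest cells held 62.5% of the GAST UMIs in KO, 71.9% in HET and 28.5% in WT, and 6, 5 and 23 cells held 50% of them. Without the 1% of cells highest in GAST (10 in KO, 5 in HET, 14 in WT) the level was 79.4 CPM in KO, 1769 CPM in HET and 1034 CPM in WT. HET then stayed above WT, at a log2 ratio of 0.78. Leaving out 10 cells takes a larger share of the 538 HET cells than of the 1407 WT cells. Leaving out cells and weighing cells equally were chosen after the values were seen. The low level in KO remained, at log2 ratios to WT of -3.86 without the 10 highest cells and -3.70 without the highest 1%.

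**Figure D2:**
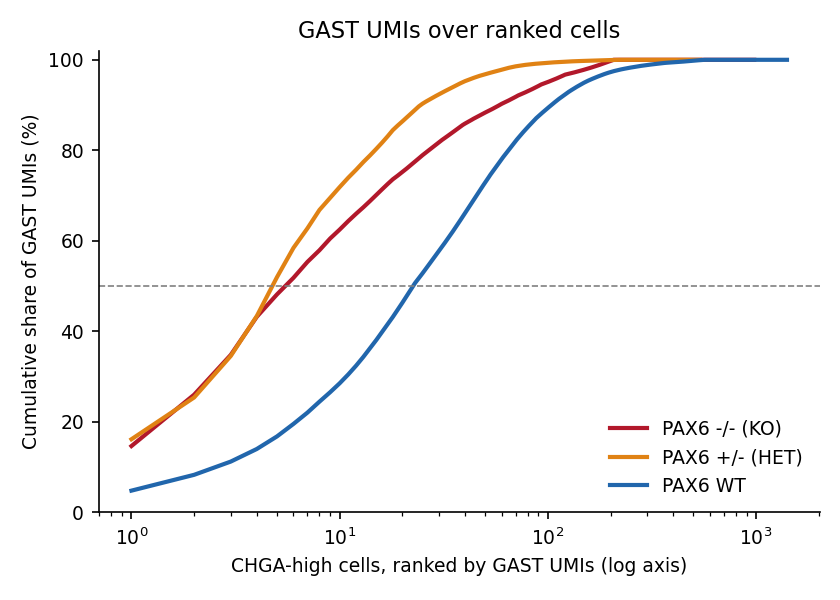
Cumulative share of GAST UMIs (%) over CHGA-high cells ranked by their GAST UMIs, on a log axis, for KO, HET and WT. The dashed line at 50% is reached with 6 cells in KO, 5 in HET and 23 in WT.

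The 10 highest HET cells were also deep, with 14060 to 47884 UMIs and a median of 22677.5, against a median of 12508.5 over all CHGA-high cells of HET. The 10 highest KO cells had a median of 14591.5 UMIs and the 10 highest WT cells a median of 15049. Of the 10 highest cells, 0 in KO, 5 in HET and 3 in WT were high for both INS and GCG. Over all GAST-high cells the shares high for both were 0%, 60.3% and 47.7%, and over other CHGA-high cells 3.99%, 20.4% and 30.9%. Doublet removal had taken out 7 of 35 GAST-high cells in KO (20%), 3 of 76 in HET (3.95%) and 24 of 198 in WT (12.1%). Of all CHGA-high cells it had taken out 12.7% in KO, 15.7% in HET and 14.7% in WT. The part of depth and of remaining doublets in the highest cells was not tested.

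Each CHGA-high cell was next put in a class by whichever of INS, GCG, SST, GHRL, PPY and TPH1 was highest, if that gene reached 10 per 10000, or else in a class with none of them. GAST and CCK did not enter this choice, and levels within classes and clusters are plain CPM. INS marks beta cells, GCG alpha cells, SST delta cells, GHRL ghrelin cells, PPY pancreatic polypeptide cells, and TPH1, the serotonin synthesis enzyme, enterochromaffin cells. The INS class held 188 cells in KO, 149 in HET and 357 in WT, the GCG class 33, 116 and 443, the GHRL class 168, 52 and 27, the TPH1 class 113, 23 and 45, and the class with none 468, 180 and 438.

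In GCG-led cells, GAST was 83.4 CPM in KO (57.8 to 117), 6983 CPM in HET (6857 to 7110) and 1759 CPM in WT (1726 to 1793). GAST-high cells were 0 of 33 in KO, 37 of 116 in HET (31.9%, 23.5 to 41.2) and 83 of 443 in WT (18.7%, 15.2 to 22.7). This was the class with the largest share of GAST-high cells in HET and in WT. Without the 10 highest cells of each library the level was 83.4 CPM in KO, 2280 CPM in HET and 1376 CPM in WT. In INS-led cells the level was 164 CPM in KO, 4275 CPM in HET and 1324 CPM in WT, and 3.19%, 10.1% and 8.40% of cells were GAST-high. The highest HET cell, with 4296 of the class's 8999 UMIs, was INS-led, and without the 10 highest cells of each library the level was 116 CPM in KO, 1105 CPM in HET and 779 CPM in WT.

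Cells led by none of the 6 genes gave another order. Their GAST level was 326 CPM in KO (311 to 342), 1307 CPM in HET (1261 to 1355) and 1808 CPM in WT (1773 to 1843). GAST-high shares in them were 4.06% in KO, 7.78% in HET and 12.6% in WT. In this class the level was lowest in KO, then HET, then WT, and without the 10 highest cells of each library it was 91.7, 572 and 1391 CPM. Of the GAST UMIs in CHGA-high cells, this class held 68.4% in KO, 11.2% in HET and 35.9% in WT.

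GHRL-led cells had 183 CPM in KO, 3541 CPM in HET and 730 CPM in WT. In HET 2452 of the class's 2611 GAST UMIs came from 1 cell, and in WT 217 of 224, so the class levels are those of single cells. TPH1-led cells were nearly without GAST, with 2.77 CPM in KO, 37.1 CPM in HET and 19.2 CPM in WT, and no GAST-high cell in any library. The SST and PPY classes reached 20 cells in WT alone, with 1306 and 319 CPM of GAST. In SST-led WT cells 713 of 1082 GAST UMIs came from 1 cell.

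**Figure D3:**
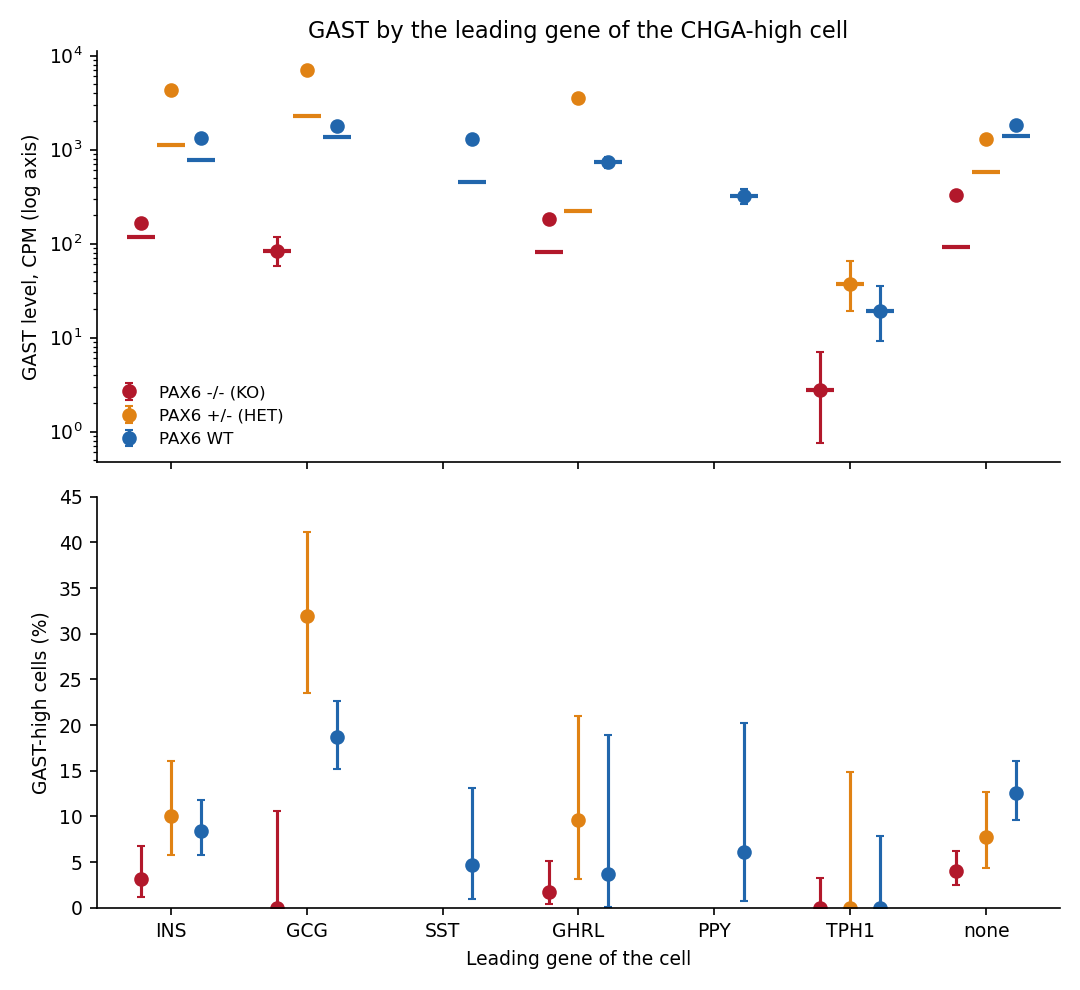
GAST level in CPM on a log axis (top) and share of GAST-high cells in percent (bottom), by the leading gene of the CHGA-high cell, for KO, HET and WT in classes of at least 20 cells. Points carry 95% counting intervals and short bars in the top panel give the level without the 10 highest GAST cells of the library; KO is lowest in each class measured in all 3, and HET exceeds WT in GCG-led cells and not in cells led by none.

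Clusters built without GAST, CCK, PAX6 and the hormone genes divided GAST in the same uneven way. CHGA-high cells of cluster 10, led by LINC00682, PHOX2A, TLX2 and GC, had 211 CPM in KO (420 cells), 1185 CPM in HET (132 cells) and 2922 CPM in WT (332 cells). Those of cluster 11, led by FFAR1, CYSLTR2, LMO2 and PGA5, had 15.1 CPM in KO (18 cells), 9107 CPM in HET (174 cells) and 1523 CPM in WT (623 cells). GAST in cluster 10 was lowest in KO, then HET, then WT, and cluster 11 held 82.6% of the GAST UMIs of HET CHGA-high cells. Without the 10 highest cells of each library, cluster 11 had 2054 CPM in HET and 1307 CPM in WT.

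Cluster 15, led by BTBD17, KLHL4, TNP1 and IL20RA, had its highest GAST level in KO. The level was 315 CPM in KO (323 cells), 246 CPM in HET (93 cells) and 111 CPM in WT (29 cells), with 12, 7 and 1 GAST-high cells. Without the 10 highest cells of KO, 4 of which lay in it, its level in KO was 128 CPM, below that of HET. Most of its cells came from KO. Of the 10 highest GAST cells, 6 lay in cluster 10 and 4 in cluster 15 in KO, 8 lay in cluster 11 in HET, and 7 lay in cluster 10 in WT.

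In HET and WT most GAST-high cells carried islet hormone RNA, and in KO none was high for GCG. INS was also high in 6 of 28 GAST-high cells in KO (21.4%, 8.30 to 41.0), 52 of 73 in HET (71.2%, 59.4 to 81.2) and 106 of 174 in WT (60.9%, 53.2 to 68.2). In other CHGA-high cells the shares were 26.4%, 47.5% and 56.4%. GCG was high in 0 of 28 GAST-high cells in KO (0 to 12.3%), 46 of 73 in HET (63.0%, 50.9 to 74.0) and 94 of 174 in WT (54.0%, 46.3 to 61.6), against 5.88%, 23.9% and 36.2% of other cells. Cells high for both INS and GCG made up 0% of GAST-high cells in KO, 60.3% in HET (48.1 to 71.5) and 47.7% in WT (40.1 to 55.4). Among other CHGA-high cells they were 3.99%, 20.4% and 30.9%.

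PYY, the peptide YY gene of intestinal L cells and islets, was high in 7.14% of GAST-high cells in KO, 31.5% in HET and 45.4% in WT, against 2.73%, 17.2% and 25.3% of others. GAL, which encodes the neuropeptide galanin, was high in 3.57%, 11.0% and 9.77% of them, against 3.15%, 3.01% and 1.95%. In WT 17 of the 41 GAL-high cells were GAST-high. GHRL was high in 7 of 28 GAST-high cells in KO (25%, 10.7 to 44.9), 7 of 73 in HET (9.59%) and 2 of 174 in WT (1.15%), against 21.5%, 14.8% and 4.30% of others. TPH1 was high in 0, 1 and 1 of them, against 15.1%, 6.24% and 4.22% of others. None of the 6 class genes was high in 19 of 28 GAST-high cells in KO (67.9%, 47.6 to 84.1), 14 of 73 in HET (19.2%, 10.9 to 30.1) and 55 of 174 in WT (31.6%, 24.8 to 39.1). Of other CHGA-high cells, 47.2% in KO, 35.7% in HET and 31.1% in WT were high for none of them. These shares depend on the threshold. With high set at 5 per 10000, none of the 6 was high in 40% of GAST-high cells in KO, 15.7% in HET and 21.8% in WT. INS was then high in 40%, 74.7% and 69.4% of them, GCG in 6.67%, 65.1% and 63.4%, and both in 4.44%, 62.7% and 56.0%. INS and GCG were themselves lower in KO over all CHGA-high cells, by 4.43-fold and 43.9-fold relative to WT.

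**Figure D4:**
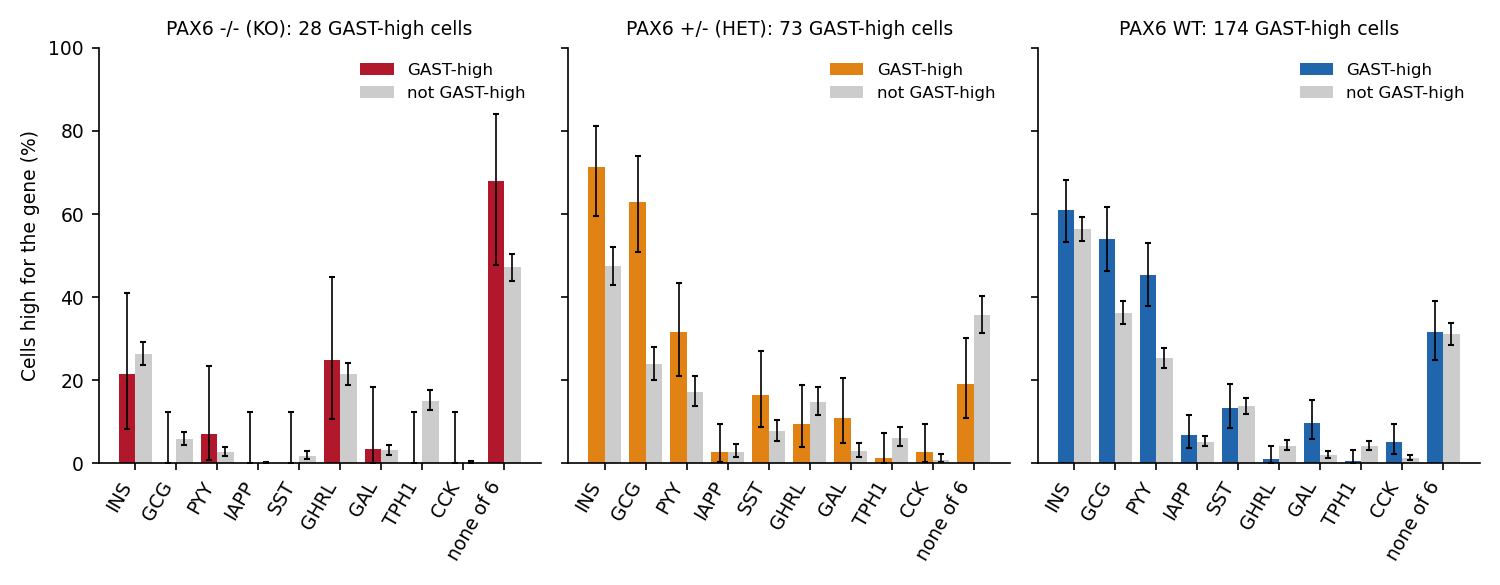
Share of cells (%) that were high for each gene among GAST-high cells (coloured) and other CHGA-high cells (grey), in KO, HET and WT, with exact binomial 95% intervals; the last pair is cells high for none of INS, GCG, SST, GHRL, PPY and TPH1. At 10 per 10000, GCG is high in 63.0% of GAST-high cells in HET and 54.0% in WT and in none of 28 in KO, where 67.9% were high for none of the 6. Of other CHGA-high cells of KO, 47.2% were high for none of the 6.

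Genes of GAST-high cells were compared with those of CHGA-high cells with no GAST UMI in the same library, 28 against 774 cells in KO, 73 against 324 in HET and 174 against 848 in WT. Among 3252 genes that reached 50 CPM, 39 (1.2%, CCK among them) stood 2-fold or more higher in GAST-high cells of both HET and WT, and 63 (1.94%) stood as far below in both. KO, with under 50 GAST-high cells, did not enter these counts. GAST-high cells were somewhat deeper, with medians of 13469.5 UMIs in KO, 15019 in HET and 14615.5 in WT, against 11948.5, 11656.5 and 11569.

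HAP1, which encodes the vesicle transport protein huntingtin-associated protein 1, went with GAST in each library. It had 146 CPM in GAST-high and 13.4 CPM in GAST 0 cells of KO (10.9-fold), 131 and 13.5 CPM in HET (9.71-fold), and 179 and 18.1 CPM in WT (9.87-fold). It was detected in 75% of GAST-high cells in KO, 65.8% in HET and 70.7% in WT, against 12.0%, 11.7% and 13.1% of GAST 0 cells. AGT, the angiotensinogen gene, was 4.2-fold higher in KO, 3.92-fold in HET and 8.72-fold in WT, though 1 cell held 58.2% of its UMIs in the GAST-high cells of KO. SERPINA1, encoding alpha-1 antitrypsin, was 4.43-fold higher in KO, 11.0-fold in HET and 2.34-fold in WT. The apolipoprotein genes APOC3 (3.07-fold, 6.33-fold and 3.46-fold) and APOA2 (4.29-fold, 8.90-fold and 2.42-fold) were higher too. For APOA2, 1 cell held 70.2% of the UMIs in the GAST-high cells of KO. APOA2 was detected in 57.1% of those cells, against 49.1% of GAST 0 cells of KO.

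C2CD4A and C2CD4B, a pair of related genes, had ratios above 1 in HET and WT and below 1 in KO. C2CD4A was 4.19-fold higher in GAST-high cells of HET and 5.68-fold higher in WT, and 2.04-fold lower in those of KO, on 7 UMIs. C2CD4B was 4.26-fold higher in HET and 5.33-fold higher in WT, and 2.61-fold lower in KO, also on 7 UMIs. GCG was 8.25-fold higher in HET and 3.66-fold higher in WT, while KO had 22.3 and 537 CPM, on 9 UMIs of which 1 cell held 77.8%. CXCL1, a neutrophil chemokine, had the largest mean ratio, 25.6-fold in HET and 4.13-fold in WT, but 1 cell held 30.5% of its UMIs in HET and 57.1% in WT, and KO had none in 28 cells.

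The 5 genes furthest down were LINC00682, a long noncoding RNA, PHOX2A, a transcription factor of autonomic neurons, CHRNA3, a nicotinic receptor subunit, NKX6-1, a beta cell transcription factor, and ROBO2, a guidance receptor. NKX6-1 had 22.3 CPM in GAST-high and 103 CPM in GAST 0 cells of KO (4.63-fold), 9.48 and 90.9 CPM in HET (9.59-fold), and 14.1 and 111 CPM in WT (7.92-fold). CHRNA3 was 4.36-fold lower in KO, 15.8-fold in HET and 19.2-fold in WT. PHOX2A was 8.02-fold lower in KO and 4.86-fold lower in WT, and had 3 UMIs in the GAST-high cells of HET. LINC00682 had 0 UMIs in the GAST-high cells of HET and 2 in those of WT, and was 3.30-fold lower in KO. ROBO2 was 2.84-fold lower in KO, 10.4-fold in HET and 6.38-fold in WT. LINC00682, PHOX2A and CHRNA3 were also leading genes of cluster 10, which held 15 of the 28 GAST-high cells of KO, 12 of 73 of HET and 62 of 174 of WT. Cluster 10 held 42.9% of all CHGA-high cells in KO, 24.5% in HET and 23.6% in WT.

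Markers of the stomach lining were near 0 in GAST-high cells. The 5 gastric markers (SOX2, TFF1, TFF2, GKN1 and MUC5AC) summed to 2.47 CPM in GAST-high and 11.9 CPM in GAST 0 cells of KO, 3.16 and 13 CPM in HET, and 4.93 and 5.59 CPM in WT, with 4, 2 and 2 at 0 in the GAST-high cells. PHOX2A and CHRNA3, which mark autonomic neurons, were lower in GAST-high cells, and GCG, which marks alpha cells, was higher in those of HET and WT, as given above. Their part in the other differences was not tested.

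Across CHGA-high cells the genes with the highest Pearson r to GAST, averaged over 538 HET and 1407 WT cells on log values, were HAP1 (0.45), APOC3 (0.44), CLU (0.41), PEMT (0.41), CHGA (0.37), PDK3 (0.36), C2CD4A (0.34), H2AFJ (0.33), TSPAN1 (0.33) and SERPINA1 (0.32), out of 11456 genes. CLU encodes clusterin, PEMT an enzyme of phosphatidylcholine synthesis and PDK3 a pyruvate dehydrogenase kinase. The cells of a library share its depth and free RNA, and CHGA chose the cells, so these values describe and test nothing.

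**Figure D5:**
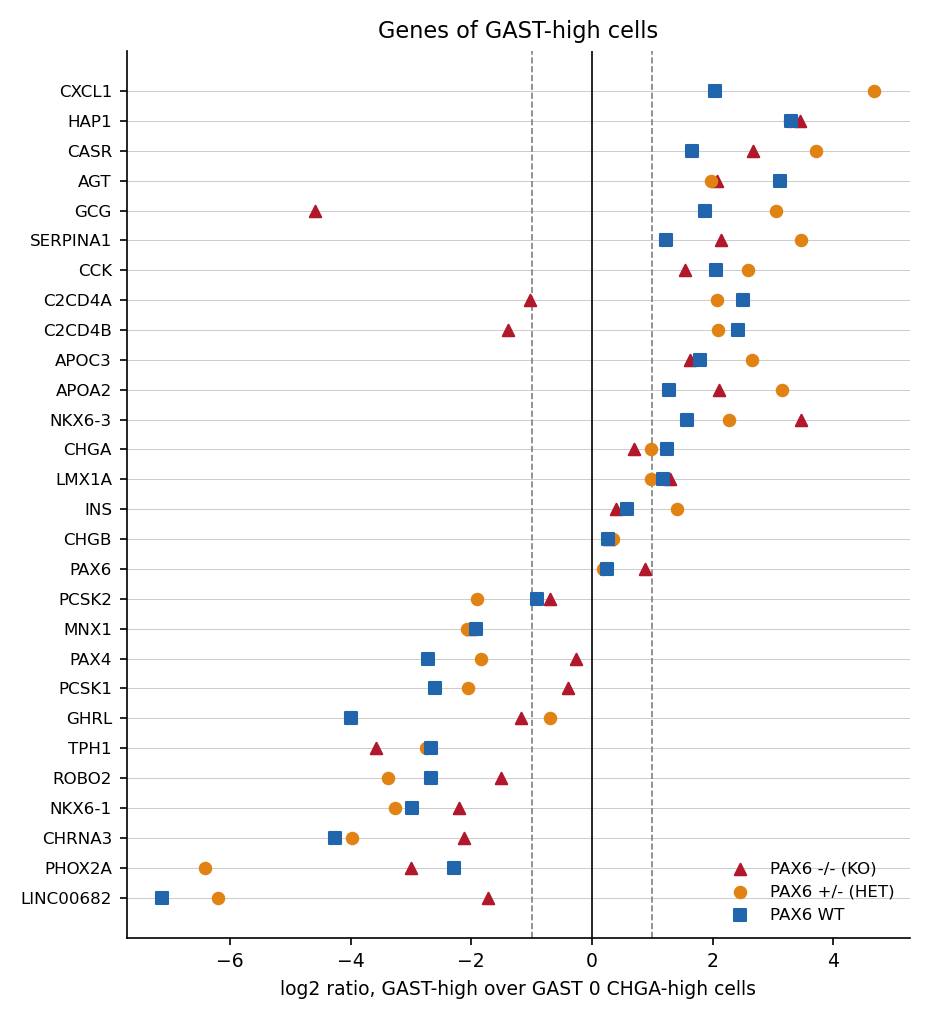
log2 ratio of summed counts in GAST-high over GAST 0 CHGA-high cells, for the 15 genes named by rule and for members of the gene lists, in KO (triangles), HET (circles) and WT (squares). Dashed lines mark 2-fold; HAP1 lies at 3.28 to 3.45 in all 3 libraries, and GCG, C2CD4A and C2CD4B lie on opposite sides in KO and in HET and WT.

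Among transcription factors of gut and islet endocrine cells, 28 of 30 reached 5 CPM. In GAST-high cells 1 of them was 2-fold or more higher and 6 lower in HET, where 2.67% of all genes were higher and 11.6% lower. In WT 2 were higher and 5 lower, where 2.13% of all genes were higher and 7.75% lower. The medians were -0.41 in HET and -0.32 in WT on the log2 scale, against -0.30 and -0.22 over all genes. NKX6-3, which mouse antral G cells require, was the one higher in both: 91.5 CPM in GAST-high and 8.26 CPM in GAST 0 cells of KO (11.1-fold), 11.9 and 2.46 CPM in HET (4.82-fold), and 25 and 8.34 CPM in WT (2.99-fold). Its HET ratio rests on 15 and 10 UMIs. PDX1, another member of this list, was 1.31-fold lower in GAST-high cells of HET and 2.66-fold lower in WT, with 89.1 and 78.2 CPM in KO. PAX4, a factor of beta and delta cell precursors, was 3.58-fold lower in HET and 6.58-fold lower in WT, with 146 and 175 CPM in KO. MNX1, needed for beta cells in mice, was 4.0-fold lower in KO, on 4 UMIs, 4.18-fold in HET and 3.79-fold in WT. PAX6 had 507 CPM in GAST-high and 274 CPM in GAST 0 cells of KO, 270 and 237 CPM in HET, and 358 and 303 CPM in WT.

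Of 13 nutrient and regulator receptors, 6 reached 5 CPM in HET, with 2 higher and 2 lower in GAST-high cells, and 7 in WT, with 1 higher and 3 lower, beside the 2.67% and 11.6% of all genes in HET and the 2.13% and 7.75% in WT. CASR was the one higher in both. CASR encodes the calcium-sensing receptor through which G cells sense calcium and amino acids. It had 61.6 CPM in GAST-high and 4.67 CPM in GAST 0 cells of HET (13.2-fold), and 48.2 and 15.3 CPM in WT (3.15-fold). In KO it had 4.95 CPM, on 2 UMIs, and 0.781 CPM. CCKBR was 4.82-fold higher in GAST-high cells of HET, on 15 UMIs, and 2.17-fold higher in WT, on 40 UMIs, and had none in the 28 cells of KO. CHRM3, a muscarinic receptor, was 2.01-fold lower in GAST-high cells of HET and 2.49-fold lower in those of WT.

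Among 16 peptide processing and granule genes, 1 was 2-fold or more higher and 3 lower in GAST-high cells of HET, and 3 were higher and 2 lower in those of WT, beside the same shares of all genes (2.67% and 11.6% in HET, 2.13% and 7.75% in WT). PCSK1, a convertase that cuts progastrin, was 4.15-fold lower in HET and 6.08-fold lower in WT, with 131 and 173 CPM in KO. PCSK2, a second convertase, was 3.73-fold lower in HET and 1.87-fold lower in WT. QPCT, which forms the N-terminal pyroglutamate of gastrin, was 1.63-fold higher in KO, 1.6-fold in HET and 2.90-fold in WT. TPST2, which sulfates tyrosines, was 2.34-fold higher in WT and 1.08-fold in HET. PAM, the amidating enzyme, had 69.3 and 61.0 CPM in KO, 56.1 and 76.2 CPM in HET, and 100.3 and 111 CPM in WT. CHGA was 1.62-fold higher in KO, 1.98-fold in HET and 2.36-fold in WT, within cells that CHGA had selected.

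CCK was low in KO, and its summed level in HET was close to that in WT. Its UMIs in CHGA-high cells were 285 in KO, 649 in HET and 1554 in WT. On the TMM-scaled CPM scale these were 23.0 in KO (20.4 to 25.8), 88.5 in HET (81.8 to 95.6) and 87.0 in WT (82.7 to 91.4). CCK was 3.78-fold lower in KO than in WT (3.33 to 4.31, log2 ratio -1.92) and 3.85-fold lower in KO than in HET (3.35 to 4.44, log2 ratio -1.95). The log2 ratio of HET over WT was 0.03, with an interval of -0.11 to 0.16. Without the 10 cells highest in CCK in each library the level was 15.0 CPM in KO, 40.2 CPM in HET and 65.8 CPM in WT, with a log2 ratio of HET over WT of -0.71. A single HET cell held 142 of the 649 CCK UMIs, and the highest KO and WT cells held 14 and 58.

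Few cells were rich in CCK, and the 10 highest held 35.4% of the CCK UMIs in KO, 56.2% in HET and 25% in WT. A CCK UMI was detected in 10.0% of CHGA-high cells in KO (8.19 to 12.1), 19.0% in HET (15.7 to 22.5) and 20.3% in WT (18.2 to 22.5), against 0.215%, 0.383% and 0.834% of cells with no CHGA UMI. Thinned to 3000 UMIs, the shares were 4.77% in KO, 9.63% in HET and 11.4% in WT, against 0.0832%, 0.0914% and 0.189%. CCK-high cells, by the same rule as for GAST, were 1 in KO (0.102%), 6 in HET (1.12%, 0.410 to 2.41) and 25 in WT (1.78%, 1.15 to 2.61). With the threshold at 5 per 10000 the shares were 1.12% in KO, 3.9% in HET and 5.05% in WT, and at 20 per 10000 they were 0%, 0.372% and 0.640%. Of all CCK UMIs of a library, CHGA-high cells held 84.6% in KO, 90.3% in HET and 93.2% in WT.

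By class, CCK was highest in KO and in WT, among classes measured in all 3 libraries, in cells led by none of the 6 genes. It had 42.9 CPM there in KO (37.6 to 48.8), 75.3 CPM in HET (64.5 to 87.4) and 113 CPM in WT (104 to 122). INS-led cells had 8.72 CPM in KO (5.40 to 13.3), 52.3 CPM in HET (43.0 to 63.0) and 76.6 CPM in WT (68.9 to 84.9). GCG-led cells had 0 UMIs in the 33 cells of KO, 176 CPM in HET, where 1 cell held 142 of 297 UMIs, and 75 CPM in WT. TPH1-led cells had 12.5 CPM in KO, 12.4 CPM in HET and 5.76 CPM in WT, on 18, 4 and 3 UMIs. In CHGA-high cells of cluster 10 CCK had 42.6 CPM in KO, 78.2 CPM in HET and 153 CPM in WT, and these cells held 88.1% of the CCK UMIs of KO CHGA-high cells.

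CCK RNA was more frequent in cells that held GAST RNA. A CCK UMI was found in 7 of 28 GAST-high cells in KO (25%, 10.7 to 44.9), 31 of 73 in HET (42.5%, 31.0 to 54.6) and 88 of 174 in WT (50.6%, 42.9 to 58.2). In CHGA-high cells with no GAST UMI the shares were 9.82% (7.81 to 12.1), 13% (9.50 to 17.1) and 14.4% (12.1 to 16.9). Thinned to 3000 UMIs, the shares were 13.5%, 22.5% and 30.3% of GAST-high cells, against 4.76%, 6.84% and 7.87%. The CCK level was 69.3 CPM in GAST-high and 23.8 CPM in GAST 0 cells of KO (2.91-fold), 277 and 46.2 CPM in HET (6.0-fold), and 232 and 56.1 CPM in WT (4.14-fold). Of the CCK-high cells, 0 of 1 in KO, 2 of 6 in HET and 9 of 25 in WT were GAST-high. The HET cell with the most CCK UMIs, 142, also held 2341 GAST UMIs and was led by GCG. In KO, 7 of the 10 cells highest in CCK had no GAST UMI, as had 774 of all 980 CHGA-high cells.

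WT cells with at least 3 CCK UMIs (149) were compared with WT CHGA-high cells with none (1122), a cut chosen after the values were seen because 25 CCK-high cells were too few. The cells with CCK were deeper, with a median of 13858 UMIs against 12077. Of 3544 genes, 33 (0.931%) were 2-fold or more higher and 36 (1.02%) as far below. GAST was first, at 5499.5 and 787 CPM (log2 ratio 2.80). By the same cut GAST had 570.0 and 205 CPM in KO, in 38 and 882 cells, and 20621 and 1064 CPM in HET, in 48 and 436 cells. Median depths of these cells were 13542.5 and 12048.5 UMIs in KO, and 15317 and 12347.5 UMIs in HET. The higher GAST values rest on few cells. Of the 319 GAST UMIs in the 38 KO cells, single cells held 128 and 91. Of the 17380 in the 48 HET cells, single cells held 4296, 2452, 2438, 2341 and 2283. In WT PSCA, a surface protein, had 78.9 and 19.9 CPM, GC, the vitamin D-binding protein, 875 and 231 CPM, and PDK3 141 and 41.5 CPM. These genes were chosen in WT, and some differed in the other libraries. PSCA had 23.2 and 42.7 CPM in KO and 21.4 and 30.7 CPM in HET. GC was 3.54-fold higher in KO and 3.41-fold in HET, and PDK3 1.03-fold and 3.92-fold. AGT was 13.8-fold lower in KO, on 2 UMIs, and 1.57-fold higher in HET. SMOC2, ERICH3, MAP2K6, CNTN1, AGT and CGA followed in WT, at log2 ratios of 1.55 to 1.67. SST was lower, at 1239 and 5890 CPM, as were RGS5, PCDH7 and the trypsinogen genes PRSS1 and PRSS2, near-identical copies whose reads may be split. INS had 7827 and 8503 CPM and GCG 33820 and 32277 CPM, within 2-fold. PCSK1 had 36.5 and 141 CPM. Across 1407 WT cells the highest Pearson r to CCK, on log values, were those of VIPR1, a receptor of vasoactive intestinal peptide (0.295), PDK3 (0.281), GAST (0.278) and CLU (0.277). PEMT, MAP2K6, DMKN, ANK1, CRNDE and SCG2 followed at 0.216 to 0.226. These are weak values in sparse counts and describe only.

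The receptors of both hormones were scarce. CCKBR had 3.79 CPM in KO, 4.23 CPM in HET and 8.62 CPM in WT CHGA-high cells, on 47, 31 and 154 UMIs, and CCKAR had no UMI in any of them. Between KO and WT, 13 of the 16 peptide processing and granule genes stayed within 2-fold. Of the 16 that reached 5 CPM, 1 was 2-fold or more higher in KO than in WT and 2 lower, with a median log2 ratio of -0.24. Of 11948 genes at that level 2.47% were higher and 5.4% lower, with a median of -0.01. SLC18A1, a vesicular amine transporter, was the higher one (27.7 CPM in KO, 6.1 CPM in WT). SCG5, a chaperone of PCSK2 (295 and 1340 CPM), and SCG3, a granule protein (505 and 1039.9 CPM), were the lower ones.

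Of 28 endocrine transcription factors, 5 were 2-fold or more higher in KO than in WT and 3 lower, with a median log2 ratio of 0.04. PAX4 was 159 CPM in KO, 98.0 CPM in HET and 68.4 CPM in WT, and NKX6-3 11.2, 4.50 and 11.6 CPM. Of 7 nutrient and regulator receptors that reached 5 CPM, 1 was 2-fold or more higher in KO than in WT and 3 lower. CASR had 1.53 CPM in KO, 21.5 CPM in HET and 26.2 CPM in WT, and FFAR1, a fatty acid receptor of beta cells, 0.242 CPM (3 UMIs), 33.7 CPM and 73.0 CPM. Of 16 hormone genes besides GAST and CCK, 3 were 2-fold or more higher in KO than in WT and 10 lower, with a median log2 ratio of -1.74. GHRL, CRH and TPH1 were the higher ones. For each of these 3 lists the shares over all genes were 2.47% higher and 5.4% lower.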

How the data were processed

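The deposited files held raw UMI counts per gene and barcode, and the file headers name Cell Ranger 6.1.2. Libraries were made with 10x Genomics Chromium chemistry, per the labels' protocols, while Seurat and the build GRCh38 appear in the submitters' processing notes with no role. The end of the transcript that was read is not given in the sources used here. Barcodes with at least 1000 UMIs, 500 genes and at most 20% mitochondrial UMIs were kept. Scrublet (scanpy 1.11.5, expected rate 0.08) called 0 cells at its automatic threshold in each library and so did not work, and the 8% of cells with the highest score were removed from each library instead. Barcodes had a median of 14365.5 UMIs in KO, 13111 in HET and 13571 in WT.

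Counts were summed over cells of a library and scaled to CPM, with edgeR 4.0.16 (R 4.3.3) TMM factors for comparisons of genotypes and plain totals within a library. Intervals are exact Poisson (levels), exact conditional (ratios) and Clopper-Pearson (shares). A library with 0 counts was set to a floor of 3 counts, and no ratio was given where both were at or under it. Cells were clustered with Leiden (leidenalg 0.10.2, 30 components, 20 neighbours, resolution 1, 2000 variable genes without GAST, CCK, PAX6, mitochondrial, ribosomal and hormone genes), which gave 19 clusters. In HET and WT, the 10 genes with the largest mean ratio upward and the 5 downward, at least 2-fold apart in both, and the 10 with the highest mean r were named. The fold code was tested on simulated data. The members, the gene lists and the rules were chosen with earlier results of these data known. Alternatives concerned doublets, cell filters, CHGA and high-cell thresholds, scaling, free RNA, class mix, a CPM minimum and, chosen after seeing the data, the weight of the highest cells.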

Additional observations from a re-analysis of the deposited data

How the results depend on the processing

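With 1 library per genotype no replicate could be left out, and no test could lose its call. Log2 ratios are given for GAST as KO over WT, HET over WT and KO over HET, and then for CCK, where they moved beyond the counting interval. Without doublet removal, or at the automatic Scrublet threshold, which removed no cell, GAST HET over WT was 0.85, KO over HET -3.76, and CCK HET over WT -0.29. With cells held to 3000 UMIs or more and 10% mitochondrial UMIs or less, GAST was -3.09, 1.60 and -4.69, CCK HET over WT 0.21 and KO over HET -2.18. With CHGA at 5 per 10000, GAST HET over WT was 1.14 and the GAST-high share of WT 10.5%, and at 20 per 10000 GAST was -3.00, 1.21 and -4.21 and that share 14.5%. Plain CPM gave GAST -2.83, 1.22 and -4.05. With leading gene classes weighing the same, GAST HET over WT was 1.52 and KO over HET -4.41, and CCK -2.17, 0.22 and -2.39.

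With high cells set at 5 per 10000, GAST-high shares were 4.59% in KO and 15.4% in WT, and 56.0% of GAST-high WT cells were high for INS and GCG. At 20 per 10000 the shares were 1.84% in KO, 10.4% in HET and 9.59% in WT. Without a minimum CPM, 3432 genes were at least 2-fold apart between KO and WT, 2443 between HET and WT and 2304 between KO and HET, against 181, 63 and 69.

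The other settings were chosen after seeing the data. Without the 10 highest cells of each library, GAST was -3.86, -0.13 and -3.73, and CCK -2.13, -0.71 and -1.42. Without the highest 1%, GAST was -3.70, 0.78 and -4.48, and CCK HET over WT -0.20. With each cell weighing the same, GAST was -2.79, 0.92 and -3.71, CCK HET over WT -0.25 and KO over HET -1.68. GAST and CCK were lower in KO than in WT and in HET in every setting run, while HET over WT turned below 0 for GAST without the 10 highest cells, and for CCK without doublet removal, with CHGA at 5 per 10000 and in the settings that give the highest cells less weight. The causes were not tested. The number of cells limits the KO co-expression shares, which rest on 28 GAST-high cells.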

Other observations

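MLN, which encodes the gut hormone motilin, had its highest summed level in HET too, with 5.64 CPM in KO (4.40 to 7.13), 88.5 CPM in HET (81.8 to 95.6) and 14.3 CPM in WT (12.6 to 16.1). A MLN UMI was found in 5.10% of CHGA-high cells in KO, 8.18% in HET and 6.97% in WT, against 0.129%, 0.447% and 0.392% of cells with no CHGA UMI. Thinned to 3000 UMIs, the shares of CHGA-high cells were 1.45% in KO, 3.04% in HET and 2.43% in WT. In KO 2 cells, in HET 1 and in WT 1 were high by the rule used for GAST. The 649 MLN UMIs of HET lay in 44 of its 538 CHGA-high cells, and 602 of these UMIs lay in cells with no GAST UMI. How many came from the 1 high cell was not examined. The HET level and the 602 UMIs may rest largely on that cell, which the counting intervals do not cover. CRH, the corticotropin-releasing hormone gene, ran the other way, with 740 CPM in KO, 451 CPM in HET and 60.7 CPM in WT, and SCT, the secretin gene, had 145, 154 and 131 CPM.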
